A study of Rattus with 12 samples.

Results

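The genes described here code for the pore-forming subunits of AMPA and kainate receptors. They were found by symbol in the table of read counts, as Gria1 to Gria4 for the 4 AMPA subunits and Grik1 to Grik5 for the 5 kainate subunits. All 9 were present among the 17337 genes listed, and all 9 were among the 12271 genes that passed the filter on low counts. The counts came from 12 complex cultures of primary Sprague Dawley rat cortical neurons, astrocytes and oligodendrocyte precursor cells (OPCs), 4 in each condition. Cultures A, G, M and P were untreated and received medium alone, cultures B, H, N and Q received 0.01 μM fentanyl (low dose), and cultures C, I, O and R received 10 μM fentanyl (high dose). Fentanyl is a synthetic opioid that activates the mu-opioid receptor. Cultures were dosed at 24 to 26 days in vitro, exposed for 4 days and lysed for bulk RNA sequencing. The cells of all 3 conditions came from the same suppliers. The comparisons ask which transcripts differed after sub-chronic exposure to the opioid. The labels do not say that the 4 cultures of a condition came from separate animals or preparations, so p-values measure the spread between these cultures.

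AMPA receptors are tetrameric ion channels opened by glutamate, and they carry most of the fast excitatory current at cortical synapses. The subunit encoded by Gria2, once its transcript is edited, keeps calcium out of the channel, and Gria1, Gria3 and Gria4 code for the partners it assembles with. Kainate receptors are related channels that act at both sides of the synapse, where they adjust transmitter release and slow currents. The subunits of Grik1, Grik2 and Grik3 can form channels by themselves, whereas those of Grik4 and Grik5 bind glutamate more tightly and need a partner from the other group. In cortex, both families are made by neurons, and members of both are also made by cells of the oligodendrocyte lineage and by astrocytes.

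Total counts ranged from 12059872 to 24813893 per culture. Levels are given as CPM, the count relative to the total of the culture after TMM scaling. They are not divided by transcript length, so each gene is compared only with itself across cultures. Markers of all 3 seeded cell types were detected in every culture. Untreated culture G stood apart, as the summed CPM of 12 neuron markers was 635.8 there and 3537.5 to 7462.4 in the other 11 cultures, so values with and without it are given. In bulk RNA, fewer cells of a type and less RNA per cell cannot be told apart. A gene was called when its adjusted p was under 0.05 and its absolute log2 fold change exceeded 0.5. The quasi-likelihood test of edgeR was used across all genes kept, with 1 factor of unwanted variation in the model. Both comparisons with untreated share the untreated cultures, and both with the high dose share the high dose cultures.

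None of the 9 subunit genes was called in any comparison, and the adjusted p (edgeR) was 1 for every gene. The same test called 0% of all genes in each of the 3 comparisons. At an unadjusted p under 0.05, 0 of the 9 subunit genes passed in each comparison. Of all genes, 0.742% passed for the low dose and 1.19% for the high dose against untreated, and 1.17% for the high against the low dose. DESeq2 also called 0 of the 9, and 0 had an unadjusted p under 0.05 by that tool. The conditions overlapped for all 9 genes in each comparison. Across all genes, 4 cultures lay fully above or below the other 4 for 0.407% when low dose and untreated were compared, 0.685% with high dose and untreated, and 1.19% with both doses. The median log2 fold change of the 9 genes was 0.054, 0.106 and 0.129 in these comparisons, beside 0.013, 0.003 and -0.009 over all genes tested. With culture G left out, the medians of the 9 genes were -0.042, 0.072 and 0.110, so that of the low dose against untreated changed sign. With the letter sets described further on as a block and without G, they were -0.100, 0 and 0.099.

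**Figure D1:**
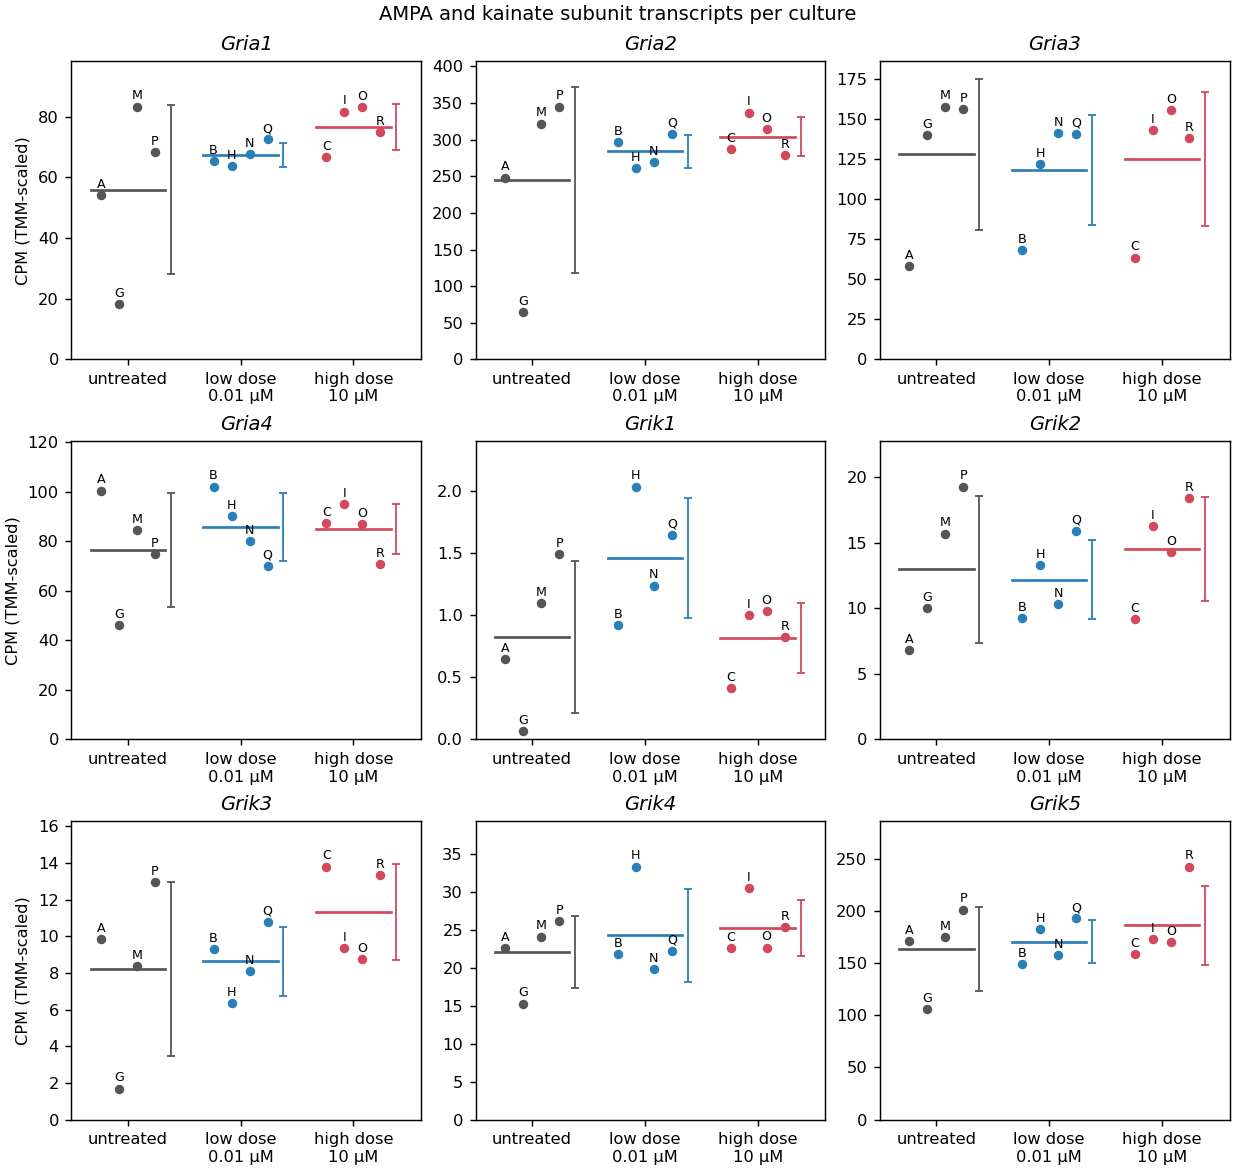
TMM-scaled CPM of each subunit gene by condition (untreated, 0.01 μM and 10 μM fentanyl), with 1 point per culture, its letter, the mean as a horizontal line and the SD as a bar beside it. Every panel shows overlapping conditions, culture G is the lowest point for 7 of the 9 genes, and A, B and C are the lowest points of Gria3.

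Gria1 codes for an AMPA subunit inserted into synapses during potentiation. Its mean was higher at the high dose than in untreated or low dose cultures, as was that of Gria2 with all cultures. The level of Gria1 was 54.1, 18.2, 83.3 and 68.4 CPM in untreated cultures A, G, M and P. It was 65.3, 63.8, 67.7 and 72.6 CPM in the low dose cultures B, H, N and Q. In the high dose cultures C, I, O and R it was 66.6, 81.7, 83.2 and 74.97 CPM. The low dose cultures lay close together, and untreated cultures fell both below and above them. The mean was 56.0 ± 27.9 CPM in untreated (SD, n = 4), 68.6 ± 14.6 without culture G (n = 3), 67.3 ± 3.84 at the low dose and 76.6 ± 7.54 at the high dose (n = 4 each). The log2 fold change was 0.17 (SE 0.23) for the low dose and 0.37 (SE 0.23, 95% interval -0.13 to 0.88) for the high dose against untreated, and 0.21 (SE 0.22) in high vs. low dose. Without culture G, the high dose value was 0.18 against untreated and the low dose value was -0.012, and without culture M the high dose value was 0.67.

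Gria2, the gene of the subunit that blocks calcium entry, was more even across the treated cultures. It measured 248, 64.4, 322 and 345 CPM in untreated cultures A, G, M and P, with culture G far below the other 3. It measured 297, 261, 270 and 308 CPM at the low dose (B, H, N, Q) and 287, 337, 315 and 279 CPM at the high dose (C, I, O, R). The untreated mean was 245 ± 127 CPM with culture G and 305 ± 50.7 without it, while the low dose mean was 284 ± 22.2 and the high dose mean 304 ± 26.8. The log2 fold change in high dose vs. untreated was 0.25 (SE 0.21, 95% interval -0.21 to 0.71) with all cultures. It was 0.022 without culture G, and -0.001 (95% interval -0.27 to 0.27) when the letter sets were also put in the model.

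Gria3, whose subunit pairs with that of Gria2 in many cortical receptors, split the cultures by letter and not by dose. The untreated cultures A, G, M and P had 58.3, 140.1, 158 and 156 CPM. The low dose cultures B, H, N and Q had 68.5, 122, 141 and 141 CPM, and the high dose cultures C, I, O and R had 63.6, 143, 156 and 138 CPM. In each condition the culture of the set A, B and C was less than any other culture. Its log2 fold changes were -0.045 (SE 0.38), 0.031 (SE 0.38) and 0.077 (SE 0.37) for low dose against untreated, high dose against untreated and high against low dose.

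Gria4, whose subunit has fast kinetics and is prominent in interneurons, ranged from 46.1 CPM in culture G to 102 CPM in low dose culture B. Its means were 76.4 ± 22.8 CPM in untreated, 85.5 ± 13.7 at the low dose and 85.0 ± 10.2 at the high dose (SD, n = 4 each). Without culture G the untreated mean was 86.6 ± 12.9 CPM (n = 3), above both doses, and the fold changes against untreated changed sign, to -0.042 and -0.059. With all cultures its log2 fold changes were 0.075 (SE 0.16), 0.078 (SE 0.16) and 0.003 (SE 0.16) for the low dose against untreated, the high dose against untreated and the high against the low dose.

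Among the kainate subunits that form channels by themselves, Grik1 was sparse, with 1 to 33 counts per culture. It was at 0.649, 0.0649, 1.10 and 1.497 CPM in untreated cultures A, G, M and P, the value in G being a count of 1. It was at 0.923, 2.04, 1.24 and 1.65 CPM at the low dose (B, H, N, Q) and at 0.415, 1.003, 1.03 and 0.827 CPM at the high dose (C, I, O, R). The low dose cultures H, N and Q lay above every high dose culture, and B lay among them. The log2 fold change was 0.78 (SE 0.51, 95% interval -0.34 to 1.91) in low dose vs. untreated and -0.78 (SE 0.48, 95% interval -1.85 to 0.30) in high vs. low dose. Both intervals held 0. The low dose value against untreated was 0.53 without culture G, 1.183 without culture P and 0.29 with letter sets as a block and without G. The high dose value against untreated was 0.005 (SE 0.51), and -0.56 with the block and without G.

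Grik3, a kainate subunit gene of low glutamate affinity, measured 9.86, 1.69, 8.37 and 12.97 CPM in untreated cultures A, G, M and P. It measured 9.31, 6.36, 8.09 and 10.8 CPM in the low dose cultures B, H, N and Q, and 13.8, 9.38, 8.77 and 13.4 CPM in the high dose cultures C, I, O and R. Cultures C and R were above all low dose cultures, and I and O lay among them. The log2 fold change was 0.37 (SE 0.20, 95% interval -0.08 to 0.81, unadjusted p = 0.0979) in high dose vs. untreated in the edgeR fit. Without culture G this value fell to 0.16, and the untreated mean moved from 8.22 ± 4.76 (n = 4) to 10.4 ± 2.35 CPM (n = 3), beside 8.64 ± 1.88 at the low dose and 11.3 ± 2.62 at the high dose. In high vs. low dose it was 0.39 (SE 0.20, 95% interval -0.049 to 0.82, unadjusted p = 0.0768), which was the smallest unadjusted p of the 9 genes in that model. The latter value was 0.25 without low dose culture H.

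Grik2, which codes for the most widely used channel-forming kainate subunit of cortex, had means of 12.97 ± 5.58 CPM in untreated, 12.2 ± 3.01 at the low dose and 14.6 ± 3.95 at the high dose (SD, n = 4 each). The high-affinity subunit gene Grik4 had means of 22.1 ± 4.74, 24.3 ± 6.13 and 25.3 ± 3.73 CPM in the same order. Grik5, the other high-affinity subunit gene, had means of 164 ± 40.4, 171 ± 20.4 and 186 ± 38.1 CPM, the highest culture being high dose R at 243 CPM. Without culture G the untreated means of Grik2, Grik4 and Grik5 were 13.95 ± 6.41, 24.3 ± 1.80 and 183 ± 16.5 CPM (n = 3), and that of Grik5 was then above the low dose mean. Their log2 fold changes in high dose vs. untreated were 0.11 (SE 0.34), 0.12 (SE 0.18) and 0.096 (SE 0.14) with all cultures, and 0.22, 0.072 and 0.054 without G. None of the 3 differed between conditions by more than the spread between cultures.

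**Figure D2:**
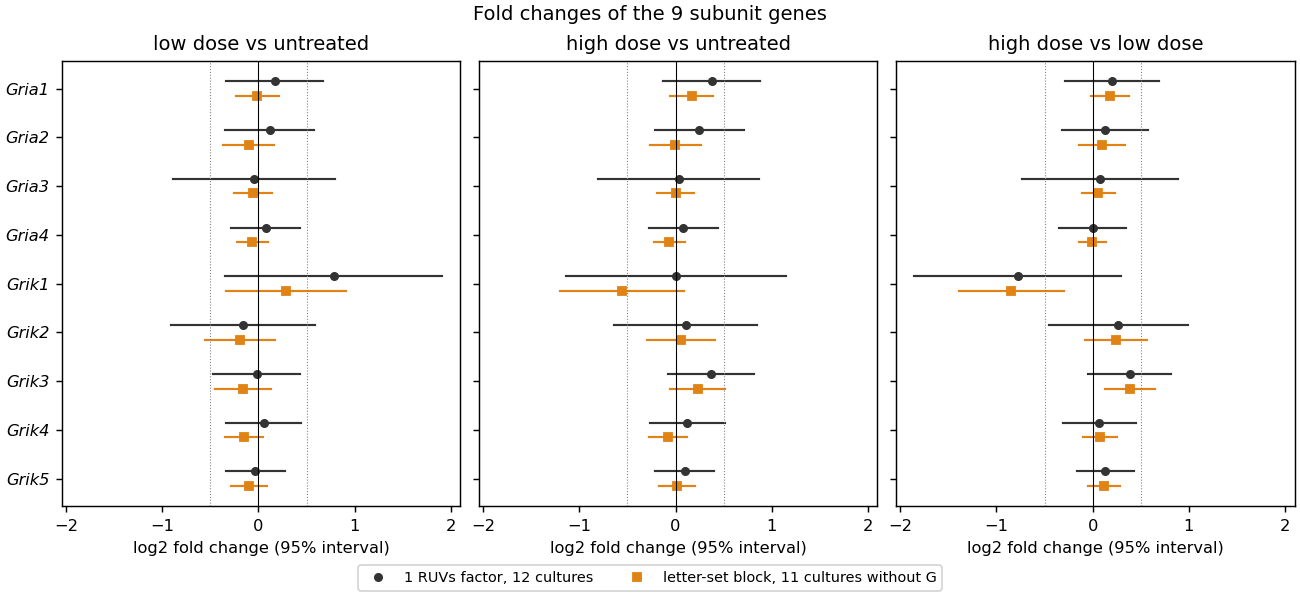
Log2 fold changes of the 9 subunit genes with 95% intervals in the 3 comparisons, from all 12 cultures with 1 factor of unwanted variation (circles) and from 11 cultures with letter sets as a block and culture G left out (squares). Dotted lines mark 0.5 in either direction. Only the squares of Grik1 and Grik3 in high vs. low dose have intervals clear of 0, and no gene was called.

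The letters of the cultures run consecutively across the doses, and the sets of 3 are written ABC, GHI, MNO and PQR. No label names these sets as a batch or a pairing, so their differences were read as values. Between high and low dose, 2 of the 9 genes, Gria1 and Grik3, were higher at the high dose in all 4 sets, a pattern of 11.7% of all genes. The differences of Gria1 on the log2(CPM + 1) scale were 0.030, 0.35, 0.29 and 0.046 in ABC, GHI, MNO and PQR. Those of Grik3 were 0.52, 0.50, 0.10 and 0.28 in the same order. Only Grik1 of the 9 was lower at the high dose in all 4 sets, a pattern of 11.1% of all genes, with differences of -0.44, -0.60, -0.14 and -0.54. The other 6 genes went both ways.

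**Figure D3:**
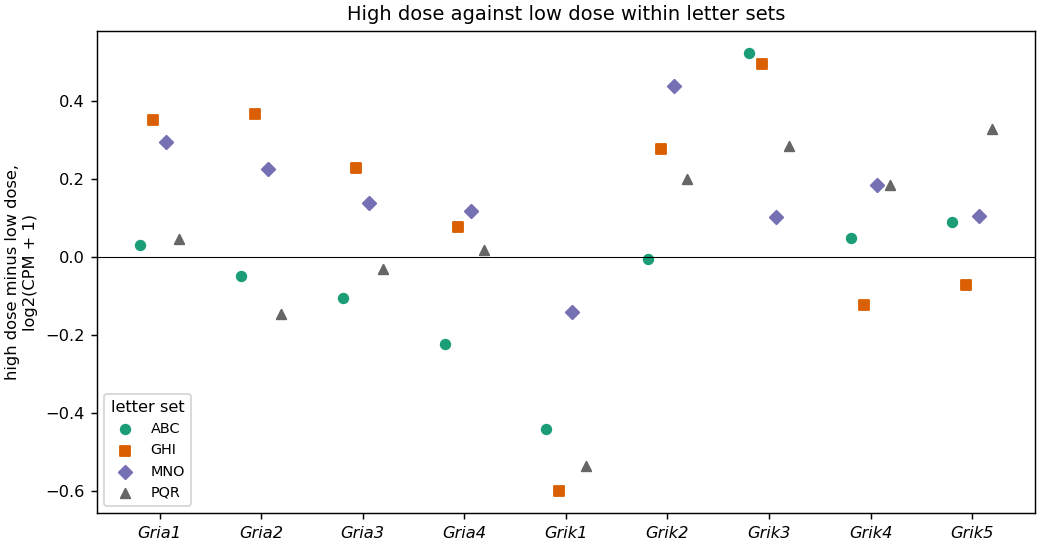
Difference between the high dose and the low dose culture of each letter set for the 9 subunit genes, in log2(CPM + 1), with 1 symbol per set. The 4 symbols of Gria1 and Grik3 lie above 0, those of Grik1 lie below 0, and those of the other 6 genes lie on both sides.

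Against untreated, Grik1 was higher at the low dose in all 4 sets (4.06% of all genes were higher and 5.28% lower). Grik3 was higher at the high dose in all 4 sets (5.22% of all genes were higher and 5.22% lower). The differences of Grik1 were 0.22, 1.51, 0.095 and 0.086, and those of Grik3 were 0.45, 1.95, 0.061 and 0.039, in the order ABC, GHI, MNO and PQR. The large value of each was that of GHI, where the untreated culture is G. No other subunit gene moved one way in all 4 sets of these comparisons.

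With letter sets as a block in place of the factor and culture G left out, 12337 genes were tested and no subunit gene was called. The edgeR test then called 0% of all genes for the low dose and 0.122% for the high dose against untreated, and 0.113% in high vs. low dose. At an unadjusted p under 0.05 it passed 7.54%, 9.43% and 13.6% of all genes, and 0, 0 and 2 of the 9 subunit genes. These were Grik1 and Grik3 in high vs. low dose, where such a p was frequent among all genes. The log2 fold change of Grik1 was -0.84 (SE 0.24, 95% interval -1.39 to -0.30, edgeR adjusted p = 0.183). That of Grik3 was 0.39 (SE 0.12, 95% interval 0.13 to 0.65, edgeR adjusted p = 0.193). That of Gria1 was 0.18 (SE 0.089, edgeR adjusted p = 0.409).

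The 9 genes did not fall alike in culture G. Gria2 was at 21.7% of the median of the other 11 cultures (95% counting interval 20.4% to 23.1%), Gria1 at 26.7% (23.6% to 30.0%) and Grik3 at 18% (11.7% to 26.4%). Gria4, Grik5, Grik4 and Grik2 were at 53.0%, 61.3%, 67.5% and 70.2%. Gria3 was at 99.4% (95.2% to 104%), with 140.1 CPM in G and 58.3 to 158 CPM elsewhere. Grik1, with 1 count in G, was at 6.29% with an interval of 0.159% to 35.1%. Culture G was the lowest of the 12 for all subunit genes except Gria3 and Grik2. Over all 12271 genes kept, the median in G was 100% of the other cultures, with quartiles of 72.8% and 139%. The intervals are exact Poisson intervals of the count in G and cover counting error only.

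The cell type markers of culture G also differed from the other cultures, in both directions. The 12 neuron markers had a median of 7.07% of the other cultures, from 1.74% for Rbfox3, a neuronal splicing factor, to 73.1% for Gap43, a protein of growing axons. The 5 markers of excitatory neurons that were kept had a median of 6.82% and a summed level of 22.1 CPM, which was 734 to 1354 CPM elsewhere. Of 7 markers of inhibitory neurons, 5 were below 50% in G, among them the vesicular transporter Slc32a1 at 3.94%, while the neuropeptide gene Npy was at 1670%. The 8 OPC markers had a median of 132% and summed to 2350 CPM, above the 566 to 2066 CPM of the other cultures. The 10 astrocyte markers had a median of 183%, and their sum of 8123 CPM lay within the 2241 to 11945 CPM elsewhere. The 5 fibroblast markers had a median of 3730%, and their sum of 1714 CPM lay within the 63.3 to 2892 CPM elsewhere. The 8 oligodendrocyte markers had a median of 37.5%, with 5 of them below 50%, and the 7 microglia markers had 177%. The sums of these 2 lists in G also lay within those of the other cultures. No marker that was kept was at 0 in G. The part of these cell types in the subunit levels was not tested.

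**Figure D4:**
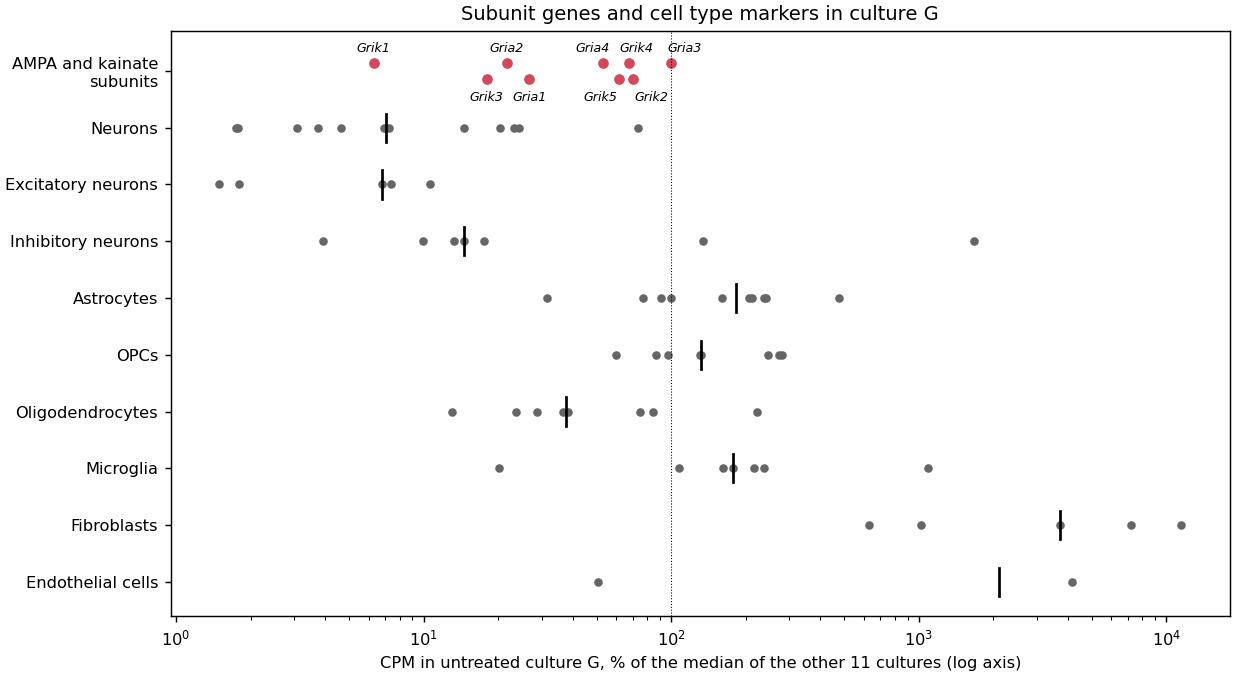
CPM in untreated culture G as a percentage of the median of the other 11 cultures, on a log axis, for the 9 subunit genes (red, named) and for markers of 9 kinds of cell (grey, with the median of each list as a bar; endothelial cells have only 2 markers). Gria1, Gria2 and Grik3 lie at 18% to 26.7%, above most neuron markers, and Gria3 lies at 99.4%.

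Outside culture G, letter sets took a larger part of the variance than doses did for all 9 subunit genes. Letter sets took 97.3% of the variance of Gria3 over the 11 cultures and doses 0.309%. For Gria4 the values were 86.7% and 0.333%, for Grik4 83.1% and 2.44%, and for Grik2 82.4% and 5.24%. Grik1 (53.3% and 38.2%), Grik3 (65.4% and 26.5%) and Gria1 (48.2% and 22.9%) had the largest parts with dose. Gria2 was the least divided, with 18.3% and 10.1%. Over all genes kept the medians were 75.3% for letter sets and 7.96% for doses. These are descriptions of 4 sets and 3 doses, since a split into more groups takes more of the variance.

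Gria3 was at 63.5 ± 5.12 CPM in A, B and C (SD, n = 3) and at 144 ± 12 CPM in the other 8 cultures without G (122 to 158), with no overlap. Grik2 was at 8.42 ± 1.36 CPM in A, B and C and at 15.4 ± 2.85 CPM in the other 8 (10.3 to 19.3), also with no overlap. How many of all genes separated A, B and C in this way was not counted. Letter sets took a median of 75.3% of the variance over all genes kept, so such splits are not shown to be particular to these subunits. The summed level of the 8 OPC markers was 566 to 761 CPM in A, B and C and 1166 to 2066 CPM in the other 8. The 8 oligodendrocyte markers split the same way, with 2966 to 4506 CPM in A, B and C and 9801 to 25742 CPM in the other 8. The summed neuron markers went the other way, with 6585 to 7462 CPM in A, B and C and 3538 to 5443 CPM in the other 8. By the mean of log2(CPM + 1) over the same markers there was overlap. That mean was 8.266, 8.193 and 8.23 in A, B and C and 8.245 in high dose culture I. The part of these cells in the levels of Gria3 and Grik2 was not tested.

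Gria4 was at 96.5 ± 8.11 CPM in ABC, 92.6 ± 3.45 in H and I, 83.8 ± 3.43 in MNO and 71.9 ± 2.65 in PQR. The PQR cultures lay below the other 8, and ABC overlapped with H and I. The share of all genes that set PQR apart was not counted either. Grik4 was highest in H and I, at 31.95 ± 2 CPM, and lay between 19.8 and 26.2 CPM in the other 9 cultures. Grik5 was highest in PQR, at 213 ± 26.6 CPM, against 160 ± 10.8 in ABC and 168 ± 8.66 in MNO. The PQR cultures also stood apart in the summed markers of several cell types. Microglia markers came to 16.4 to 19.3 CPM there and 161 to 644 CPM in the other 8, astrocyte markers to 8425 to 11945 against 2241 to 4857 CPM, and OPC markers to 1961 to 2066 against 566 to 1554 CPM. Summed neuron markers came to 3538 to 4267 CPM in PQR and 4348 to 7462 CPM in the other 8. By the mean log2 level of the same neuron markers there was overlap. That mean was 7.98 in high dose culture R and 7.844 in low dose culture N. The part of these cells in Gria4 and Grik5 was not tested.

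Across the same 11 cultures, Gria3 had a Pearson r of 0.92 (Spearman rho 0.70) with the mean log2 level of the OPC markers, and Grik2 had 0.96 (rho 0.96). Grik5 had 0.70 (rho 0.83) and Gria1 0.67 (rho 0.66) with the same markers. Grik5 also had -0.76 (rho -0.60) with the microglia markers. With the oligodendrocyte markers the values were 0.85 (rho 0.66) for Gria3 and 0.82 (rho 0.64) for Grik2. Gria4 had an r of 0.86 (rho 0.88) with the neuron markers and -0.80 (rho -0.78) with the OPC markers. Gria2 had its highest r with the OPC markers, 0.55 (rho 0.62), among the 5 marker lists compared. All these values share the libraries, the scaling and the letter sets, so they describe the division between sets and carry no p. Gria3 and Grik2 had an r of 0.87 (rho 0.70) with each other.

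The make-up of each family was described by the share of each gene in the counts of its family. These counts are not divided by transcript length, so a share is compared only across cultures. Gria2 held 51.7% ± 2.97 of the AMPA counts in the 11 cultures without G (SD), from 48.2% to 56.9%, and 24.0% in G. Gria3 held 12.7% ± 0.135 in A, B and C (n = 3), 23.9% ± 1.12 in the other 8 and 52.1% in G. The spread of the Gria3 share within A, B and C was small beside its distance from the other sets. Gria4 held 15.1% ± 3.25 and Gria1 12.3% ± 0.782 in the 11 cultures. The AMPA counts as a whole came to 461 to 657 CPM in the 11 cultures and 269 CPM in G.

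The share of Gria1 was 12.1% ± 0.178 at the low dose (n = 4, highest 12.3%) and 12.99% ± 0.396 at the high dose (n = 4, lowest 12.4%), with no overlap between these values. The nearest cultures were Q at 12.26% (95% Wilson interval 11.59% to 12.97%) and I at 12.44% (11.88% to 13.02%). The intervals of this nearest pair overlapped. Whether counting error covers the difference between all cultures of the doses was not tested. The untreated cultures without G spread over both, from 10.6% to 12.9% (mean 11.7% ± 1.13, n = 3), and G was at 6.78%. The Gria1 difference was chosen after the shares had been seen, and no test was made. The shares of the other 3 AMPA genes overlapped between all conditions.

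In the kainate family, Grik5 held 78.4% ± 1.77 of the counts in the 11 cultures, and the share in G, unlike those of Gria2 and Gria3, was inside the range of 75.2% to 81.1%. Grik4 held 10.8% ± 1.63, Grik2 5.82% ± 1.28, Grik3 4.43% ± 0.989 and Grik1 0.491% ± 0.190. The share of Grik1 was 0.484% to 0.858% at the low dose and 0.202% to 0.475% at the high dose, with no overlap, on 7 to 33 counts per culture. The nearest cultures were B at 0.484% (95% Wilson interval 0.277% to 0.845%) and O at 0.475% (0.293% to 0.771%). Here too the intervals of the nearest pair overlapped, and counting error over all cultures of the doses was not tested. The untreated cultures without G had 0.308% to 0.573% and lay across both doses, and this difference between doses, too, was chosen after its values were seen. The shares of the other 4 kainate genes overlapped between all conditions. Grik3 reached 6.73% in high dose culture C and was at 1.26% in G. The kainate counts came to 191 to 301 CPM in the 11 cultures and 133 CPM in G.

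**Figure D5:**
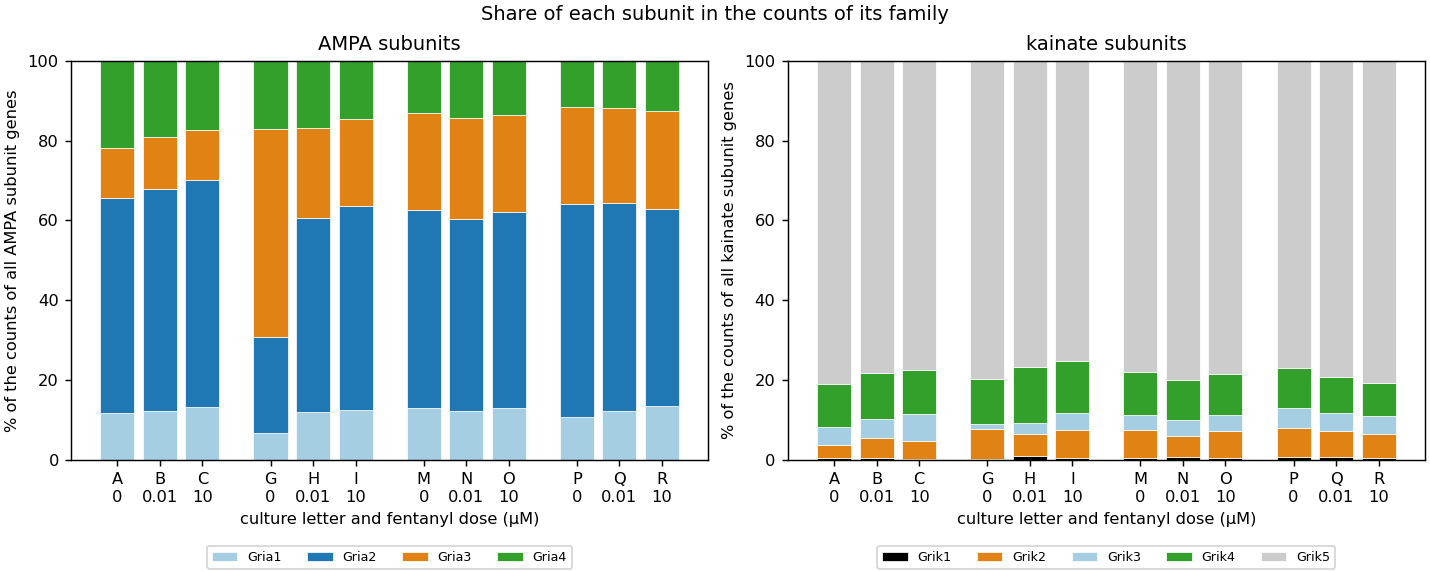
Share of each gene in the summed counts of the AMPA (left) and kainate (right) subunit genes, in percent, with 1 stacked bar per culture grouped by letter set and the fentanyl dose in μM under each letter. The Gria3 part is narrow in A, B and C (12.6% to 12.9%) and wide in G (52.1%), and Grik5 fills 75.2% to 81.1% of each kainate bar.

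Genes whose products act with the receptors were counted in 6 lists. They comprised 16 kept auxiliary subunits of AMPA receptors, 2 of kainate receptors, 5 genes of assembly in the endoplasmic reticulum, 21 of scaffolds and traffic, 13 of synaptic clustering and activity, and 4 of RNA editing. None of these genes was called in either model (edgeR) in any comparison, and 0 had an unadjusted p under 0.05 with all 12 cultures. With letter sets as a block and without G, high vs. low dose passed at an unadjusted p under 0.05 for 1 up and 1 down of the AMPA auxiliary genes and 3 up and 2 down of the scaffolds. It also did so for 1 up and 4 down of the clustering genes and 1 up of the editing genes, beside 13.6% of all genes. In high dose vs. untreated, 4 of the 13 clustering genes, 1 scaffold gene and 1 AMPA auxiliary gene passed, all down, beside 9.43% of all genes. For the low dose against untreated, 3 of the 21 scaffold genes and 1 clustering gene passed, all down, beside 7.54%.

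The 2 most abundant genes of each list are given with their values in high vs. low dose from all cultures. The log2 fold change was 0.021 (SE 0.27) for Olfm1 and 0.16 (SE 0.20) for Olfm2, which code for secreted proteins found with AMPA receptors. It was 0.23 (SE 0.35) for Neto1 and 0.091 (SE 0.33) for Neto2, the auxiliary subunits of kainate receptors. Abhd12 and Sacm1l, listed for assembly, had -0.11 (SE 0.15) and -0.058 (SE 0.11), and Kif5c, a motor that carries receptors along dendrites, had 0.11 (SE 0.16). Camk2b, a kinase of the postsynaptic density, had 0.043 (SE 0.28). Adarb1, the enzyme that edits the Gria2 transcript, had 0.029 (SE 0.30), and its relative Adar 0.15 (SE 0.15).

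Nptx2 and Arc, activity-regulated genes that act on AMPA receptors, varied more. Nptx2, a pentraxin that gathers receptors at synapses, was at 13.4, 52.3, 112 and 168 CPM at the low dose (B, H, N, Q). It was at 11.3, 30.3, 24.95 and 48.1 CPM at the high dose (C, I, O, R) and at 14.5, 1.49, 54.3 and 103 CPM in untreated cultures A, G, M and P. In all 4 sets the high dose culture had less Nptx2 than the low dose culture, a pattern of 11.1% of all genes, and the conditions overlapped. Its log2 fold change in high vs. low dose was -1.71 (SE 0.84) with all cultures and -1.34 (SE 0.25, edgeR adjusted p = 0.0876) with the block and without G. Arc, which promotes the removal of AMPA receptors, ranged from 1.65 to 170 CPM in the 11 cultures, and its log2 fold change was -0.41 (SE 1.37) and -0.93 (SE 0.23, edgeR adjusted p = 0.147) in the 2 models. Nptx1, a pentraxin of the same family, had 0.41 (SE 0.66) with all cultures and 0.46 (SE 0.17, edgeR adjusted p = 0.289) with the block and without G. Nptxr, a membrane-bound pentraxin, had -0.14 (SE 0.14) and -0.15 (SE 0.054, edgeR adjusted p = 0.294). With Nptx1, Nptxr is among the 2 most abundant clustering genes. Arc and Nptxr were also lower at the high dose in all 4 sets, and Nptx1 was higher in all 4 (11.7% of all genes).

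In culture G, 13 of the 16 AMPA auxiliary genes, 15 of the 21 scaffold genes and 9 of the 13 clustering genes were below 50% of the other cultures. So were 1 of the 2 kainate auxiliary genes, 1 of the 5 assembly genes and 1 of the 4 editing genes. Over all genes kept the lower quartile in G was 72.8%, and the share below 50% was not counted. The neuron markers had a median of 7.07% in G, and their part in these counts was not tested. The editing enzyme Adarb1 was at 24.0%, close to the 21.7% of Gria2, whose transcript it edits. Chosen after their values were seen, Cacng3 and Cacng2, auxiliary subunits that bring AMPA receptors to synapses, were at 0.392% and 1.57%, and Cacng4 of the same family was at 135%. Of the kainate auxiliary subunits, Neto1 was at 47.1% and Neto2 at 127%.

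The genes most like each subunit gene were sought by Pearson r of log2 CPM over the 11 cultures, among all genes kept. Gria3 was closest to Kcnj3, a potassium channel gene (r = 0.99, rho 0.90), Slc4a2 (r = 0.99) and Adam19 (r = 0.985). Grik2 was closest to Shroom2 (r = 0.98), Abca2 (r = 0.974) and Mob3b. Gria4 was closest to Capza2 (r = 0.97), Serpini1, a neuronal protease inhibitor (r = 0.96), and Napg (r = 0.96). Grik5 was closest to Zmiz2 (r = 0.97), Dmtn and Zc3h7b, and Grik1 to RGD1311747 (r = 0.96), Gla and RGD1307155. Gria1 was closest to Pgr, the progesterone receptor gene (r = 0.94), Nek11 and Otud7b, and Grik3 to Camsap2 (r = 0.92), Sarm1 and Map2k7. Grik4 was closest to Cabyr (r = 0.92), Dact3 and Zdhhc9, and Gria2 to Miat, a long noncoding RNA (r = 0.91), Thsd7a and Zdhhc23. These are the highest r values among all genes kept, and the points share libraries, scaling and letter sets.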

How the data were processed

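RNA of 12 cultures, 4 per condition, was sequenced from poly(A)-selected libraries. The deposited values are whole-number counts per gene and culture, which the authors made by aligning reads to rn6 with STAR and counting with featureCounts, without normalization. The authors' strand setting is not given in the sources used here. Counts were filtered with filterByExpr, scaled by TMM and fitted in edgeR 4.0.16 (R 4.3.3) with dose and 1 RUVs factor, its formula written in R, which held 41% of the variation within conditions. P-values were adjusted by Benjamini-Hochberg over all genes kept. Standard errors came from the information matrix of the fit and the quasi-dispersion. The script was tested on simulated counts.

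The subunit genes, partner lists and markers were chosen with earlier results of these data known. Of each partner list the 2 genes with the highest mean CPM are named, besides Adarb1, Nptx2 and Arc, any gene called, and the 3 genes most like each subunit gene. All 9 symbols matched RefSeq. No transcript lengths or sequences were used here, so levels per kilobase could not be computed as planned, and shares rest on the counts as deposited. Alternatives were no factor, 2 factors, the likelihood ratio test, DESeq2 1.42.0, other size factors, no filter, the letter-set block and each culture left out. With total counts of 12059872 to 24813893, Grik1 (1 to 33 counts) was the least precise gene. No 2 replicates were alike within sampling noise (smallest chi-square per degree of freedom 17.8).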

Additional observations from a re-analysis of the deposited data

Results flagged for a closer look

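In each condition of 4 cultures, the gap between the highest or lowest culture and its neighbour was divided by the range and compared with Dixon's 95% critical value for 4 values. Of 54 groups of levels and shares, 5 passed it, and chance passes about 1 in 20 groups. The share of Gria2 in the AMPA counts was 23.96% in untreated culture G and 49.7% to 53.9% in the other untreated cultures. The level of Gria3, as log2(CPM + 1), was 5.889 in untreated culture A and 7.14 to 7.31 in the other untreated cultures. At the high dose it was 6.014 in culture C and 7.12 to 7.29 in the others. The share of Grik2 in the kainate counts was 3.244% in untreated culture A and 7.001% to 7.54% in the others, and the share of Grik3 was 6.728% in high dose culture C and 4.04% to 4.44% in the others. Of these cultures, A and C belong to the same letter set, in which OPC markers were lowest.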

How the results depend on the processing

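No subunit gene was called under any of the 20 alternatives of each comparison (lowest adjusted p 0.183). The planned scale per kilobase was not run for lack of transcript lengths. In low dose vs. untreated, the block without G gave -0.012 for Gria1, -0.100 for Gria2, -0.063 for Gria4 and -0.153 for Grik4. There, 2 RUVs factors gave 0.088 for Gria3, no factor gave 0.073 for Grik3 and 0.064 for Grik5, and the letter-set block gave 0.234 and 0.084. In high dose vs. untreated, the block without G gave -0.001 for Gria2, -0.065 for Gria4, -0.557 for Grik1 and -0.079 for Grik4. Gria3 was -0.034 with no factor and -0.012 with the block, and Grik1 was -0.012 by the likelihood ratio test and -0.006 by DESeq2. In high vs. low dose, Gria4 was -0.009 with no factor, -0.004 with 2 factors and -0.003 with the block without G. With each culture left out in turn, low dose vs. untreated ranged from -0.012 to 0.461 for Gria1, -0.087 to 0.332 for Gria2, -0.391 to 0.249 for Gria3 and -0.042 to 0.275 for Gria4. It ranged from -0.456 to 0.238 for Grik2, -0.247 to 0.259 for Grik3, -0.126 to 0.138 for Grik4 and -0.076 to 0.103 for Grik5. High dose vs. untreated ranged from -0.306 to 0.328 for Gria3, -0.059 to 0.274 for Gria4, -0.279 to 0.369 for Grik1, -0.176 to 0.492 for Grik2 and -0.040 to 0.231 for Grik5. High vs. low dose ranged from -0.108 to 0.295 for Gria3, -0.092 to 0.094 for Gria4, -0.041 to 0.255 for Grik4 and -0.007 to 0.204 for Grik5. The causes were not tested. The labels give the conditions no shared replicate numbers. The letter-set block rests on the order of letters alone. Over all genes, calls were also counted for the low dose and the high dose against untreated and for high vs. low dose. They numbered 0, 1 and 1 with 2 factors, 0, 2 and 0 by the likelihood ratio test, and 0, 3 and 1 by DESeq2. The block without G gave 0, 15 and 14. The main fit used here, with 1 factor, gave 0 in each. Counts of 1 to 33 per culture limit Grik1, and 4 cultures per condition with these letter sets limit the rest.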
